A study of Homo sapiens with 6 samples.

Results

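The genes described here were the colony-stimulating factors CSF1, CSF2 and CSF3 together with IL34, a further ligand of the CSF1 receptor, and they made up 4 of the 58174 genes with values. They were chosen by their measured FPKM in earlier results of the same 6 samples, with the OV-BRCA1 group set against the NC group. Their differences between the groups are therefore a description and carry no test. SiHa, an established line from a human squamous carcinoma of the cervix, received the GV230-BRCA1 plasmid in the OV-BRCA1 group (3 samples) and GV230 without the insert in the NC group (3 samples). Both groups went through the same lipid transfection, and RNA was taken 48 h later. No batch was given in the labels, so the plasmid and the handling of the groups cannot be told apart. The study calls the samples of a group biological replicates, and all p-values measure the spread between them.

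Values were FPKM, the fragments of a transcript per kilobase of its length and per M mapped fragments, summed over the transcripts of each gene. The depth was estimated from what 1 fragment added to genes that have only 1 transcript. For OV-BRCA1 samples 1 to 3 this gave 15.6, 16.1 and 13.6 M fragments, and for NC samples 1 to 3 it gave 15.6, 18.2 and 19.1 M. BRCA1, the gene on the plasmid, was listed at an FPKM of 35.7, 40.8 and 34.9 in the OV-BRCA1 group against 20.1, 14.9 and 21.7 in the NC group, so the labels and the values went the same way in all 6 samples. Transcripts of the plasmid and of the gene itself cannot be told apart in these sums. The difference was 0.95 ± 0.14 (SE, n = 3 per group) on the log2(FPKM + 1) scale, with an adjusted p of 0.00373 in limma after Benjamini-Hochberg adjustment. It stayed under the fold threshold used below for DEGs (an absolute difference above 1), and passed it at 1.00 without NC replicate 1, at 1.06 without NC replicate 3 and at 1.13 with the leading transcript in place of the sum.

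The epithelial label of the line was checked on 10 epithelial markers. KRT7, a keratin of simple epithelia, was the most abundant of them, with means of 1617 ± 75.4 for OV-BRCA1 and 1701 ± 42.6 for NC (FPKM, SD, n = 3 each). KRT8, KRT18, KRT17 and SFN were also listed above an FPKM of 100 in every sample. KRT5 and TP63, markers of basal squamous cells, stayed below 0.4 in every sample, and KRT19 and CDH1 below 1. The cells thus carried keratins of epithelium, KRT17 among them, with little KRT5 and TP63. That pair is only a part of the list, so the squamous state of the cells is not read from it.

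CSF1 and IL34 are secreted or membrane-bound ligands of the receptor tyrosine kinase CSF1R and keep monocytes, macrophages and their relatives alive. CSF2 acts through CSF2RA paired with CSF2RB, a chain shared with the receptors of IL3 and IL5, and drives granulocytes, macrophages and dendritic cells. CSF3 acts through CSF3R and drives the production and release of neutrophils. Epithelial and tumor cells are known sources of these factors, while their main receptors sit on myeloid cells.

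CSF1, the macrophage factor, was the most abundant of the 4 genes in both groups. Its FPKM was 15.03, 13.7 and 14.9 in the OV-BRCA1 samples and 5.00, 4.72 and 4.98 in the NC samples. All OV-BRCA1 samples lay above all NC samples, with little spread within either group. The means were 14.5 ± 0.737 for OV-BRCA1 and 4.90 ± 0.154 for NC (FPKM, SD, n = 3 each), a ratio of 2.97. On the log2(FPKM + 1) scale the difference was 1.40 ± 0.05 (SE from the group SDs, n = 3 per group). The values rested on about 2565 estimated fragments over the OV-BRCA1 samples and 958 over the NC samples. In a bulk sample, more cells with CSF1 transcripts and more transcripts per cell cannot be told apart.

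CSF3, the neutrophil factor, was low but measurable in the OV-BRCA1 group and close to the limit of detection in the NC group. The FPKM of CSF3 was 3.49, 3.83 and 3.31 in the OV-BRCA1 samples and 0.0767, 0.289 and 0.114 in the NC samples. The groups did not overlap. The NC values of CSF3 stood for about 2, 4.99 and 3.65 fragments, against 85.6, 83.0 and 63.1 fragments in the OV-BRCA1 samples. The difference on the log2(FPKM + 1) scale was 1.97 ± 0.09 (SE from the group SDs, n = 3 per group), and with a pseudocount of 0.1 it was 3.89, because the NC values lie far below 1. CSF3 passed the filter on low values (0.5 or more FPKM in 3 or more samples) only through the group in which it was high.

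CSF2, the factor for granulocytes and macrophages, was listed at an FPKM of 0.157 and 0.223 in OV-BRCA1 samples 1 and 2 and at 0 in the other 4 samples. These values stood for 1.93 and 2.83 fragments. A count of 0 still allows up to 3 fragments, which for CSF2 is an FPKM of 0.199 to 0.279 depending on the sample, so all 6 values lay within what a count of 0 allows and no fold is given. IL34 was listed at 0.108 in OV-BRCA1 sample 1, at 0.103 in NC sample 3 and at 0 in the other 4 samples. Those values of IL34 were 3 and 3.49 fragments, on a single transcript, IL34-202. A difference in CSF2 or IL34 was not detectable at this depth.

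In the OV-BRCA1 group the order of levels by FPKM was CSF1, then CSF3, then CSF2 and IL34, whose values could not be ordered. In the NC group CSF1 was highest, and CSF3, CSF2 and IL34 could not be ordered at 4.99 fragments or fewer each. In 2 of the 4 genes every OV-BRCA1 sample was above every NC sample, and in 0 every one was below, whereas 23.4% and 27.4% of the 16321 tested genes had groups apart in those directions. Since the genes were chosen with this contrast known, nothing is read from that count.

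**Figure D1:**
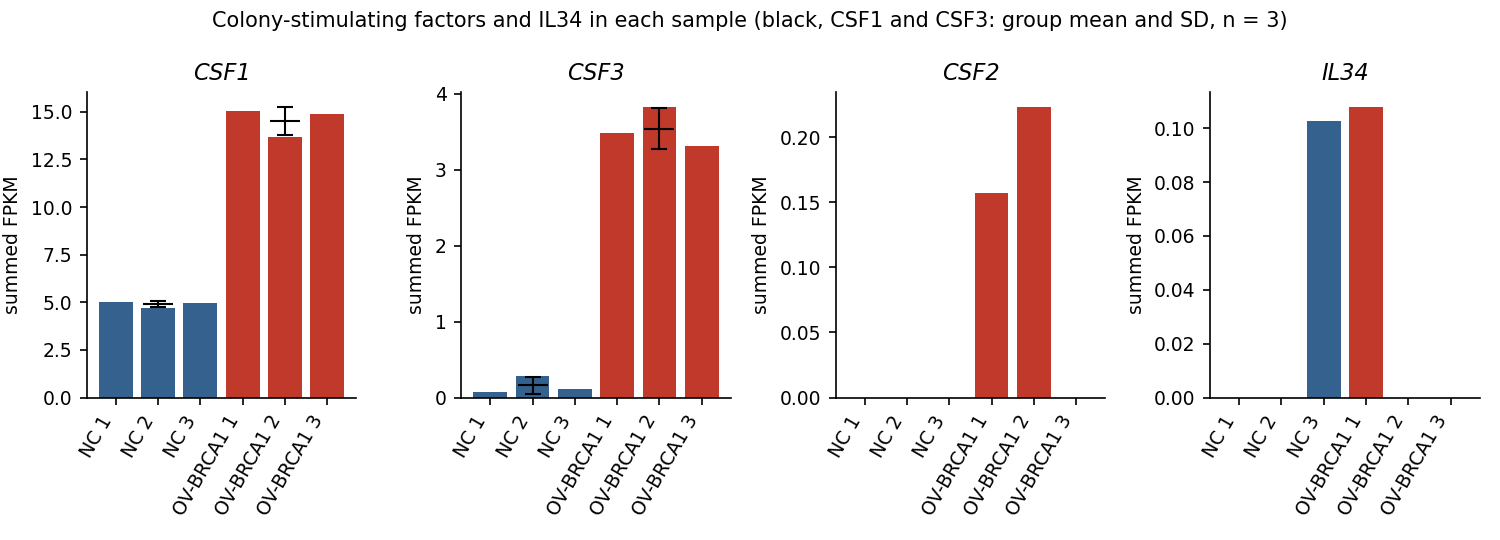
Bars give the summed FPKM of each gene in each sample on axes that start at 0, with a separate scale for each gene, NC in blue and OV-BRCA1 in red. For CSF1 and CSF3 the black marks give the group mean and SD (n = 3), and CSF1 lies between 13.7 and 15.03 in the OV-BRCA1 group and between 4.72 and 5.00 in the NC group, while CSF2 and IL34 rest on 3.49 fragments at most.

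The transcripts of CSF1 differ in exon 6, which carries the sites of proteoglycan attachment and of cleavage that release the secreted form. CSF1-201 holds the whole exon (chr1:109923166-109924190 on the plus strand, build GRCh38, 1025 bases) and encodes 554 residues. CSF1-205 enters the exon at a later acceptor (chr1:109924060-109924190), leaves out 894 coding bases, and encodes the membrane form of 256 residues. The sequences below, from GENCODE release 29, are the last 15 bases of exon 5 (chr1:109921980-109921994) and, in capitals, the first 15 bases that follow in each transcript, and they show the junction that separates the forms.
CSF1-201: aatgctccagccaagATGTGGTGACCAAGC
CSF1-205: aatgctccagccaagGCCATGAGAGGCAGT

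CSF1-201 carried most of the gene in every sample. Its FPKM was 12.9, 12.4 and 13.2 in the OV-BRCA1 group against 4.07, 3.66 and 4.23 in the NC group. CSF1-205 was listed at 1.12, 0.298 and 0.679 in the OV-BRCA1 group against 0.374, 0.360 and 0.457 in the NC group, where the groups overlapped. CSF1-203 also has a shortened exon 6 but encodes 438 residues, so it is not the same form as CSF1-205. It was listed at 0.250 in OV-BRCA1 sample 2 and at 0 in every other sample. Over both transcripts the sum was 1.12, 0.548 and 0.679 against 0.374, 0.360 and 0.457, higher in every OV-BRCA1 sample. Without CSF1-203, OV-BRCA1 sample 2 lay below every NC sample at 0.298. Most of the gene difference lay in the form with the whole exon 6. CSF1-204, which also has the whole exon but another 3′ end, was listed at 0.617, 0.532 and 0.775 in the OV-BRCA1 group against 0.463, 0.275 and 0.154 in the NC group. Transcripts with the whole exon 6 made up 92.7% ± 2.42 of the CSF1 FPKM for OV-BRCA1 and 87.4% ± 3.67 for NC (SD, n = 3 each), and the groups overlapped (89.9% in OV-BRCA1 sample 1, 90.6% in NC sample 1). The share of CSF1-201 alone was 85.8%, 90.3% and 88.7% against 81.4%, 77.6% and 84.9%. It was higher by 6.98 percentage points. The share comes from the contrast that chose the genes, and its exact permutation p of 0.1 (adjusted p of 0.2 over 2 genes by Benjamini-Hochberg) is the lowest that 3 against 3 samples can give, so the difference is a description.

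The transcripts of CSF3 differ in whether they keep exon 3 (chr17:40016233-40016340 on the plus strand, build GRCh38, 108 coding bases). CSF3-202 and CSF3-204 keep it and encode 200 and 204 residues, and CSF3-206 skips it and encodes 164. CSF3-201 adds 9 bases at the end of exon 2 (chr17:40015846-40015854) and encodes 207. The sequences below show exon 3 and the added bases, and not the other coding differences between these transcripts. Each starts with the last 15 bases of exon 2 (chr17:40015831-40015845), with exon 3 or the added bases in capitals, and ends with 15 bases of exon 4 (chr17:40016485-40016499) or, in CSF3-201, of exon 3 (chr17:40016233-40016247).
CSF3-202: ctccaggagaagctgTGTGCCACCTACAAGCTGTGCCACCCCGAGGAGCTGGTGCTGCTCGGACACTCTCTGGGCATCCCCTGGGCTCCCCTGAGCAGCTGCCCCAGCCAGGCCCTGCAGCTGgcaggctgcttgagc
CSF3-206: ctccaggagaagctggcaggctgcttgagc
CSF3-201: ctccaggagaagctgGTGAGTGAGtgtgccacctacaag

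The CSF3 sum was steady in the OV-BRCA1 group, but its transcripts were not. CSF3-206, without exon 3, was listed at 0, 2.62 and 2.06 in OV-BRCA1 samples 1 to 3. CSF3-204, with exon 3, was listed at 1.61, 0.405 and 0.451 in the same samples, and CSF3-202 at 1.32, 0.392 and 0.591. OV-BRCA1 sample 1 thus stood apart from samples 2 and 3. Transcripts with exon 3 made up 96.7% of the CSF3 FPKM in OV-BRCA1 sample 1 and 24.9% and 31.5% in samples 2 and 3, and CSF3-201 with its longer exon 2 was above 0 in OV-BRCA1 sample 1 alone. The NC samples held too few fragments to compare forms. The share of CSF3-206 is therefore not compared between the groups, and its exact permutation p of 0.4 is not read. With CSF3-206 alone in place of the sum, the CSF3 difference was 1.09 on the log2(FPKM + 1) scale. Whether the change of form between samples came from the cells or from how fragments were assigned to transcripts was not tested.

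**Figure D2:**
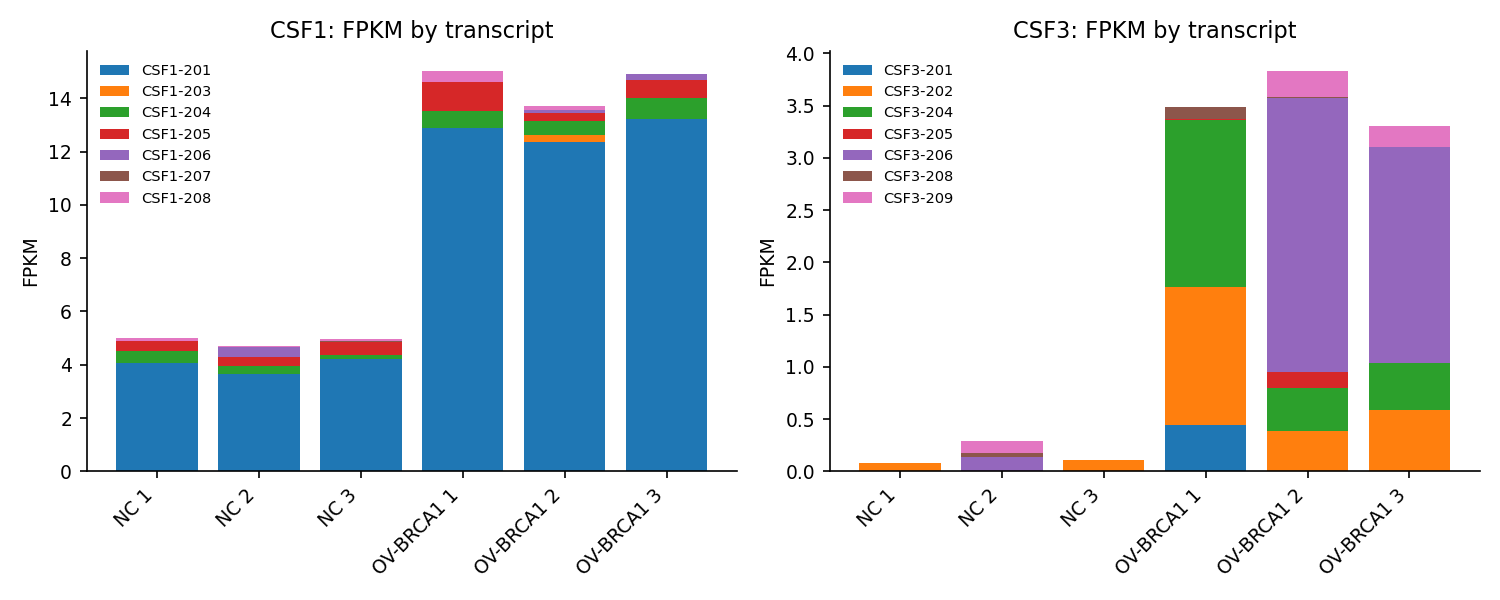
Stacked bars give the FPKM of each transcript above 0, by sample, for CSF1 (left) and CSF3 (right), each on its own axis from 0. CSF1-201 fills 77.6% to 90.3% of every CSF1 bar, whereas the CSF3 bars of the OV-BRCA1 group are of like height (3.31 to 3.83) but made of different transcripts, with CSF3-206 at 0 in sample 1.

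Messages of colony-stimulating factors are known to be short-lived, and repeats of ATTTA in the 3′ untranslated region bind proteins that speed or slow their decay. The windows of 30 bases below, from GENCODE release 29 on build GRCh38, show the densest stretch of ATTTA (in capitals) in each gene that has one, all on the plus strand. They lie at chr1:109930917-109930946 for CSF1-201, chr5:132076076-132076105 for CSF2-201 and chr17:40016979-40017008 for CSF3-202.
CSF1: taaagtcATTTAaatatctATTTAaaagat
CSF2: aaaatATTTATTTATTTATTTATTTAagtt
CSF3: atgtATTTAtctctATTTAatATTTAtgtc

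ATTTA occurred 8 times in the 318 bases of the region of CSF2-201, 7 times in the 854 bases of CSF3-202, and 4 times in the 2154 bases of CSF1-201. It did not occur in the shorter region of CSF1-204 (694 bases) or in IL34-202 (495 bases). The density was 25.2 per kilobase for CSF2-201 and 8.20 for CSF3-202, against 1.86 for CSF1-201 and 2.26 over the 17354 genes with a region of at least 100 bases. The longer motif TTATTTATT, which contains ATTTA, was found 3 times in CSF2-201 and in no other of these transcripts, and 7.76% of the 17354 genes had it, over regions of unequal length. Motifs were read on the transcribed strand only, and a match is a description of the letters. Among 16 genes for mRNA stability, 0 were DEGs in either direction, where a DEG is a gene with an adjusted p below 0.05 and an absolute log2 difference above 1 (2.89% of the 16321 tested genes upregulated and 1.10% downregulated). By the adjusted p alone (limma, Benjamini-Hochberg), 4 rose and 3 fell with the plasmid, against 16.4% and 18.9% of all tested genes.

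The receptors of the 4 ligands were largely missing from these cells. CSF1R, the receptor of CSF1 and IL34, was listed at 0.00570, 0 and 0 in the OV-BRCA1 group against 0.0160, 0.0267 and 0.0854 in the NC group, all values of 1.93 fragments or fewer. CSF3R, CSF2RB, PTPRZ1 (another receptor of IL34) and IL5RA were listed at 0 in all 6 samples. Of the 8 genes in the receptor list, 3 were tested. CSF2RA, the ligand-binding chain for CSF2, had an FPKM of 6.65, 6.36 and 6.998 in the OV-BRCA1 group against 4.23, 6.14 and 5.40 in the NC group, without the partner CSF2RB. Its difference of 0.31 ± 0.13 (SE, n = 3 per group) did not pass (limma with Benjamini-Hochberg, adjusted p = 0.106), and the sign turned to -0.23 with the leading transcript in place of the sum. IL3RA, the ligand-binding chain for IL3, had 2.98, 3.44 and 3.599 against 1.45, 1.31 and 1.94. Its difference was 0.76 ± 0.12 (limma with Benjamini-Hochberg, adjusted p = 0.00452), below the fold threshold, which it passed at 1.06 with a pseudocount of 0.1. With the leading transcript in place of the sum, IL3RA was at 0.42 and did not pass the adjusted p (0.114 in limma). SDC1, a heparan sulfate proteoglycan that can bind IL34, had 18.0, 16.3 and 13.5 against 9.94, 9.02 and 13.2, a difference of 0.54 ± 0.16 (limma with Benjamini-Hochberg, adjusted p = 0.0406). The adjusted p of SDC1 in limma did not hold without the filter (0.0959), with the leading transcript (0.453, at a larger difference of 1.16), or with any of 4 single samples left out (0.104 to 0.112). CSF2RA and IL3RA lie in the region that the X and Y chromosomes of the reference share, and were placed on X. How fragments were assigned between the reference copies was not given.

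Among 10 related ligands, 6 were tested, of which 3 were upregulated and 0 downregulated by the DEG criterion (2.89% and 1.10% of all tested genes). By the adjusted p alone, 4 were higher and 0 lower (16.4% and 18.9% of all tested genes). LIF, a cytokine of the IL6 family, had an FPKM of 46.1, 48.0 and 45.6 in the OV-BRCA1 group against 8.84, 8.92 and 9.03 in the NC group. It was upregulated by 2.26 ± 0.05 (SE, n = 3 per group; limma with Benjamini-Hochberg, adjusted p = 3.43e-06). IL11, which acts on megakaryocytes and other cells through the same signaling chain, had 37.8, 35.1 and 36.2 against 4.85, 5.66 and 4.54. Its difference was 2.64 ± 0.08 (limma with Benjamini-Hochberg, adjusted p = 8.95e-06). IL6, an inflammatory cytokine, had the highest level of the list, at 566, 587 and 548 against 170, 156 and 183, with a difference of 1.74 ± 0.07 (limma with Benjamini-Hochberg, adjusted p = 1.57e-05). The groups did not overlap for these 3 cytokines, where 23.4% of all tested genes had groups apart in this direction. The 3 were named because they were called, so nothing is read from their separation. IL3, the gene next to CSF2, was listed at 0 in all 6 samples.

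**Figure D3:**
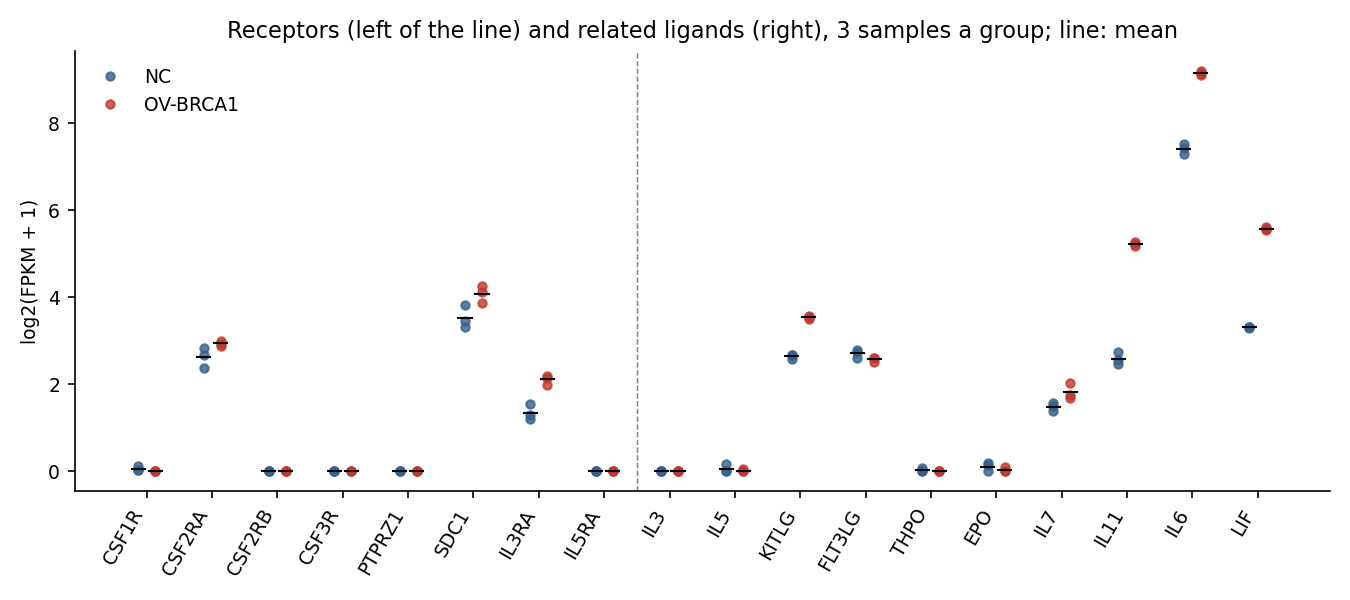
Points give log2(FPKM + 1) of each sample (NC in blue, OV-BRCA1 in red) and short lines the group means for 8 receptor genes, left of the dashed line, and 10 related ligands, right of it. CSF2RB, CSF3R, PTPRZ1 and IL5RA sit at 0 in all 6 samples, while IL11, IL6 and LIF lie apart in the groups.

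Over the pathway lists together, 103 of 129 genes were tested. Of these, 6 were upregulated (5.83%, against 2.89% of all tested genes) and 3 downregulated (2.91%, against 1.10%). By the adjusted p alone, 31 were higher (30.1%, against 16.4%) and 18 lower (17.5%, against 18.9%). The median difference was 0.14 for the 103 genes and -0.04 for all 16321 tested genes. The lists were drawn up with results of these data known, so nothing particular to them is read from these counts.

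Cytokines of the IL1, TNF and IL17 families and their signaling parts are known inducers of colony-stimulating factors. Of 32 such genes, 20 were tested, 1 was upregulated and 0 were downregulated. IRAK2, a kinase-like adaptor of the IL1 receptor, had an FPKM of 7.77, 7.73 and 7.85 in the OV-BRCA1 group against 2.39, 3.44 and 2.85 in the NC group. Its difference was 1.18 ± 0.11 (SE, n = 3 per group; limma with Benjamini-Hochberg, adjusted p = 0.000613). The share over all tested genes was 2.89% upregulated and 1.10% downregulated. By the adjusted p alone, 8 genes of the list were higher and 1 lower (16.4% and 18.9% of all tested genes), and the median difference of the tested genes was 0.39. Of the 8, 3 passed the filter only through the OV-BRCA1 group, so they had to differ and their calls are not read. Of 23 genes for signal transduction, all tested, 0 were DEGs, 4 were higher and 5 lower by the adjusted p alone (the same shares of all tested genes apply), and the median was -0.05.

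Transcription factors that act on promoters of colony-stimulating factors, of the NF-kB, AP-1, CEBP, ETS, RUNX and NFAT families and SP1, held calls in both directions. Of 29 genes, 27 were tested, 2 were upregulated and 3 downregulated (2.89% and 1.10% of all tested genes). FOSL1, a FOS-related part of AP-1, had an FPKM of 68.2, 74.4 and 92.8 in the OV-BRCA1 group against 20.5, 13.5 and 17.4 in the NC group. FOSL1 was upregulated by 2.14 ± 0.17 (SE, n = 3 per group; limma with Benjamini-Hochberg, adjusted p = 0.000337). FOS, in contrast, had 68.2, 70.6 and 72.9 against 309, 329 and 299, and its difference was -2.13 ± 0.05 (limma with Benjamini-Hochberg, adjusted p = 3.88e-06). AP-1 genes thus moved in opposite directions. FOSB was downregulated with a difference of -1.68 ± 0.06 (limma with Benjamini-Hochberg, adjusted p = 1.46e-05), and ATF3 with -1.24 ± 0.16 (adjusted p = 0.00226 in the same limma fit). RELB, a subunit of NF-kB, had 9.09, 7.81 and 8.39 against 3.29, 2.02 and 3.30, a difference of 1.30 ± 0.16 (limma with Benjamini-Hochberg, adjusted p = 0.00153). With the leading transcript in place of the sum, the calls of RELB (0.88, adjusted p = 0.3) and FOSB (-1.45, adjusted p = 0.424) in limma were lost. Of 11 genes for secretion and shedding, among them ADAM17, a protease that releases membrane-bound CSF1, 8 were tested, 0 were DEGs, and 2 were higher and 3 lower by the adjusted p alone (16.4% and 18.9% of all tested genes).

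**Figure D4:**
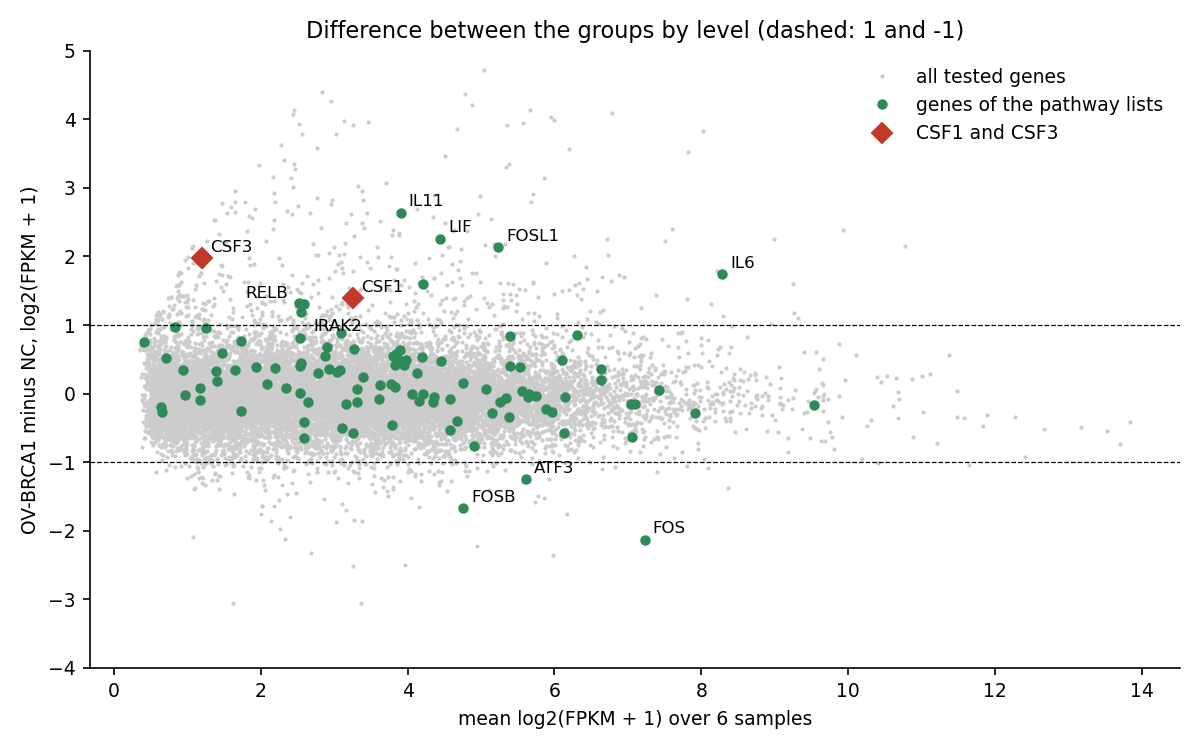
Each point is 1 of the 16321 tested genes, with its mean log2(FPKM + 1) over 6 samples on the x axis and the difference between the groups on the y axis, and dashed lines mark 1 and -1. CSF1 (1.40) and CSF3 (1.97), in red, lie above the upper line with 6 genes of the pathway lists that were called, in green, and 3 called genes lie below the lower line; other green points beyond a line missed the adjusted p.

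The neighbors of each gene within 100 kb were examined on the annotation. Around CSF3, 8 of 13 neighbors were tested and 1 was called (2.89% of all tested genes were upregulated and 1.10% downregulated). This was AC090844.3, a long noncoding RNA on the minus strand (chr17:40012226-40014705) whose start lies 0.656 kb before that of CSF3 and points away from it. Its FPKM was 1.48, 0.815 and 1.66 in the OV-BRCA1 group, or 18.1, 10.3 and 17.7 fragments, and it was listed at 0 in all NC samples. Like CSF3, it entered the test only through the group in which it was high, so its call is a description and no p is given. CSF3 and AC090844.3 were both listed above the NC values in every OV-BRCA1 sample. As annotated, CSF3 and AC090844.3 share no bases.

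The other tested neighbors of CSF3 did not pass the DEG criterion. NR1D1, a nuclear receptor of the circadian clock, had 12.5, 14.3 and 13.4 in the OV-BRCA1 group against 6.86, 7.24 and 6.06 in the NC group, a difference of 0.90 ± 0.09 (limma with Benjamini-Hochberg, adjusted p = 0.000709). PSMD3, THRA, MED24, ORMDL3, GSDMB and SNORD124 lay between -0.89 for SNORD124 and 0.01 for MED24, with adjusted p-values in limma of 0.0564 or more. Several of these values hung on the alternative used. SNORD124 rested on 5.72 fragments or fewer in each sample, so its difference is not read. Without NC replicate 2, MED24 turned to -0.21. With the leading transcript in place of the sum MED24 was at 1.07 (adjusted p = 0.593 in limma), and without OV-BRCA1 replicate 1 ORMDL3 turned from -0.11 to 0.26. Around CSF1, 1 of 5 neighbors was tested, AHCYL1, with a difference of -0.67 ± 0.22 (limma with Benjamini-Hochberg, adjusted p = 0.0545). AHCYL1 passed the adjusted p in limma without OV-BRCA1 replicate 3 (-0.90, 0.0119) and when scaled to nuclear protein-coding genes (0.0420). Around CSF2, 0 of 8 neighbors were tested, and 7 were listed at 0 in all samples. Around IL34, 6 of 11 were tested and 0 were called (2.89% of all tested genes were upregulated and 1.10% downregulated). FUK (-0.79) and COG4 (-0.53) were lower in the OV-BRCA1 group at adjusted p-values in limma of 0.00233 and 0.00293, where 18.9% of all tested genes were lower by the adjusted p alone, and FUK passed the fold threshold at -1.17 with the leading transcript in place of the sum. VAC14 and AC020763.4 did not pass the adjusted p, and SF3B3 (-0.17) and MTSS1L (-0.20) passed it only in some alternatives, at -0.29 and -0.35 with the leading transcript.

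**Figure D5:**
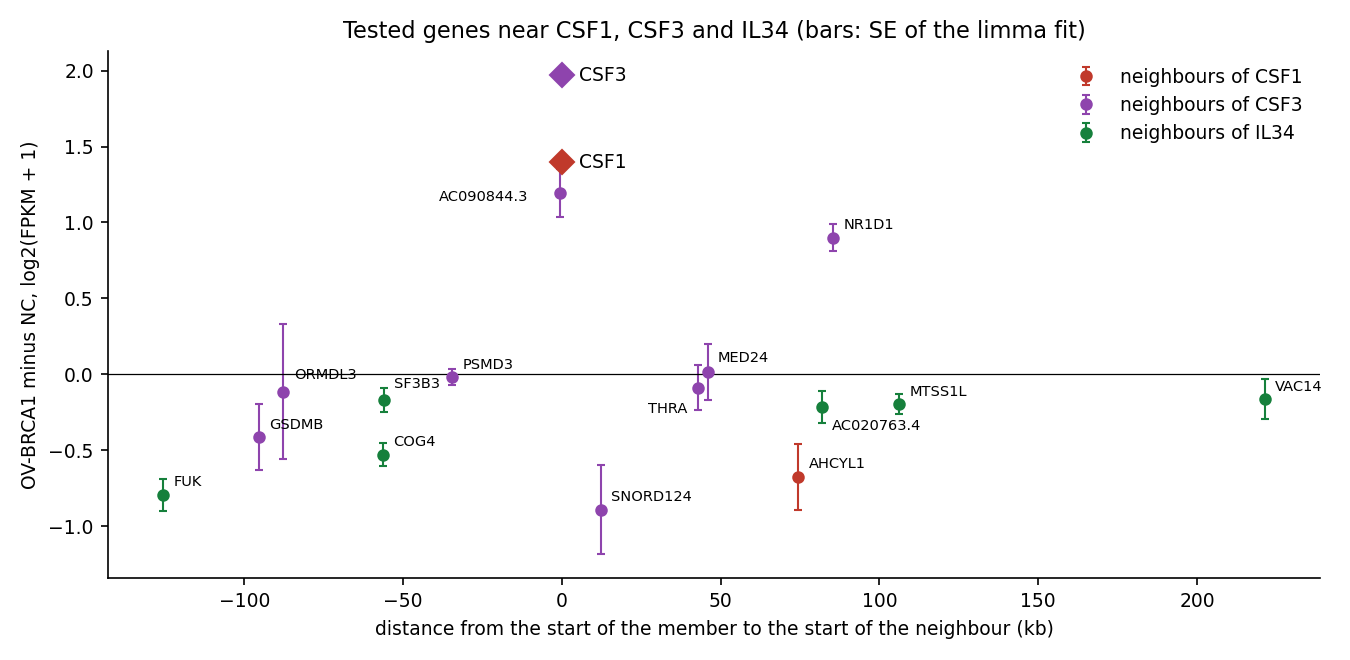
Points give the difference between the groups in log2(FPKM + 1) for each tested neighbor, by the distance from the start of the named gene to the start of the neighbor in kb, with bars for the SE of the limma fit. CSF3 (1.97) and CSF1 (1.40) are drawn as diamonds at 0, and AC090844.3 at -0.656 kb is the neighbor with the highest value, 1.19.

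The protein-coding genes with the most similar profile were found by the root mean square difference of log2(FPKM + 1) over the 6 samples, each gene centered on its own mean. For CSF1 they were HSD17B2, a steroid dehydrogenase (0.0304), DUSP5, a phosphatase of ERK (0.0376), and HSPA5, the chaperone of the endoplasmic reticulum (0.0387). HSPA5 was far more abundant than CSF1, at 362, 356 and 362 in the OV-BRCA1 group against 137, 137 and 141 in the NC group. For CSF3 they were DDX60, an antiviral helicase (0.0711), INHBA, the activin A subunit (0.0792), and XAF1, a proapoptotic interferon-induced gene (0.0800). INHBA had 6.12, 6.16 and 6.48 against 0.823, 1.22 and 0.860. These profiles are nearly the contrast of the groups itself, and the likeness says nothing of shared control. The likeness also hangs on the pseudocount of 1. With 0.1 the difference was 1.55 for CSF1, against 3.29 for HSD17B2, 1.48 for DUSP5 and 1.38 for HSPA5. For CSF3 it was 3.89, against 2.17 for DDX60. INHBA and XAF1 reached at most 2.59 and 2.19 under any alternative.

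Markers of other cell types were read in the same samples, since colony-stimulating factors act on myeloid cells. Of 14 myeloid markers, 5 were listed at 0 in all samples, namely CSF3R, PTPRC, AIF1, MPO and TYROBP. The summed FPKM of the list was 31.9, 34.8 and 37.8 in the OV-BRCA1 group against 24.2, 22.8 and 23.5 in the NC group. CD68, a lysosomal protein also made outside macrophages, was the most abundant in the OV-BRCA1 group, with 22.2, 27.3 and 29.4 against 3.38, 4.17 and 2.74, a difference of 2.63 ± 0.15 (limma with Benjamini-Hochberg, adjusted p = 9.75e-05). CD14, the higher of the pair in the NC group, went the other way, with 9.04, 6.65 and 7.69 against 20.4, 17.8 and 19.9 (-1.22 ± 0.11, limma with Benjamini-Hochberg, adjusted p = 0.000594). The pan-leukocyte marker PTPRC was thus at 0 while single genes of the list differed between the groups. The 10 fibroblast and endothelial markers summed to 4.07, 4.77 and 4.72 against 7.44, 7.52 and 6.78, with COL1A1 the most abundant and LUM, VWF and KDR at 0. The 10 lymphocyte markers summed to 0.533, 0.335 and 0.276 against 0.966, 0.717 and 0.581, and 0 of them were tested. The 10 epithelial markers summed to 3491, 3330 and 3404 against 3809, 3718 and 3843, a fall carried by KRT17 (means of 1033 against 1434). KRT18 was higher in the OV-BRCA1 group, and EPCAM was upregulated (1.12 ± 0.13, limma with Benjamini-Hochberg, adjusted p = 0.00142), so the list did not move as a whole.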

How the data were processed

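The authors deposited FPKM values for 199167 transcripts of 58174 genes in 6 samples. The submitters' processing notes name FastQC, HISAT2 and build hg38, and the counting tool and its use of strand were not given in the sources used here. Transcript FPKM were summed per gene and named by GENCODE release 29, which held 198868 of the transcripts. The 16321 genes that reached 0.5 FPKM in 3 or more samples were tested on log2(FPKM + 1) with limma 3.58.1 (trend, R 4.3.3) and Benjamini-Hochberg adjustment. A run on simulated data with normal noise checked the code only, and not whether the model holds for FPKM. A pseudocount of 1 understates changes of low genes. Other steps used Python 3.11.15, numpy 2.4.6, pandas 2.3.3, scipy 1.17.1 and matplotlib 3.10.9.

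The 4 genes and all lists were chosen with earlier results of these data known. Named genes were the 4 genes, BRCA1, all receptors, up to 5 called genes per pathway list and direction with the smallest adjusted p, tested neighbors within 100 kb, and 3 nearest profiles for CSF1 and CSF3. Markers and other list genes with values were named after these had been seen.

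Depth was estimated from 14216 genes with 1 transcript of 600 to 5000 bases. Of their values under 10 fragments, 10.6% to 13.7% lay within 0.01 of a whole number, where an even spread gives 2%. Floors (3 fragments) cover counting error only.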

Additional observations from a re-analysis of the deposited data

How the results depend on the processing

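The number of DEGs was 651 (472 upregulated, 179 downregulated), and of these 9 were pathway genes. A pseudocount of 0.1 gave 1280 (764 upregulated, 516 downregulated) and 14, and the adjusted p alone gave 5764 and 49. Leaving out each sample gave 564 to 663 and 9 to 11. No filter, a filter at an FPKM of 1, both scalings and the leading transcript gave 618 to 658 and 9 to 10. With the replicate number as a replicate block the counts were 646 and 9. Same-numbered samples did not deviate together (correlations of -0.024, 0.025 and 0.014), so the numbers were not taken as pairs, and not every sample correlated best with its own number. The CSF1 difference of 1.40 was 1.55 with a pseudocount of 0.1, 1.47 with the leading transcript, and 1.37 to 1.44 with each sample left out. The CSF3 difference of 1.97 was 3.89, 1.09 and 1.92 to 2.05 under the same changes. For the pseudocount the low NC values account for the move, and for the leading transcript the cause was not tested. The share of CSF1-201 differed by 5.12 to 8.80 percentage points with each sample left out, and that of CSF3-206 by 15.2 to 49.3, which rests on 4.99 fragments or fewer in each NC sample and is not read. No adjusted p for these shares could pass at this number of samples. Of 19 called genes among the 45 named and tested genes, 17 kept the call under each alternative in which they were tested, and RELB and FOSB lost it with the leading transcript. Most of the 19 were named because they were called or had a profile like the contrast. AC090844.3 and HSD17B2 passed the filter only through the OV-BRCA1 group. The count of 17 is therefore a description, and no stability is read from it. Signs turned for CSF2RA with the leading transcript (-0.23), for KRT7 with the leading transcript (from -0.07 to 0.000890) and for MED24 without NC replicate 2 (-0.21, and 0.16 without NC replicate 1). They also turned under at least 1 alternative for the small differences of ORMDL3, THRA and PSMD3, and MED24 was at 1.07 with the leading transcript. The adjusted p of SDC1 rose to 0.0954 in limma with the replicate block, and that of IL3RA to 0.114 with the leading transcript, where BRCA1 gained the call (1.13).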
